A study of Mus musculus with 4 samples.

Results

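The genes described here are 10 markers of tuft-like medullary thymic epithelial cells: Trpm5, Pou2f3, Il25, Dclk1, Gnb3, Gnat3, Plcb2, Chat, Avil and Ptgs1. They were chosen by name, with earlier results of these data known. Every non-control probe whose gene name, or current symbol of its RefSeq transcript, was one of them was taken. This gave 18 of the 41174 probes on the arrays and 9 of the 10 genes. No probe matched Gnat3, the taste G protein alpha subunit, and it was not analysed here. All 9 genes and 14 of the 18 probes were bright enough to be tested, among 16813 features in all.

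Tuft cells are rare chemosensory epithelial cells, best known from the gut and airway, whose development requires the transcription factor Pou2f3. They sense their surroundings with the machinery of sweet, bitter and umami taste: receptors act through a G protein on phospholipase C beta-2, calcium is released from internal stores, and the cation channel Trpm5 opens. In the gut they release IL-25, which acts on innate lymphoid cells, together with eicosanoids and acetylcholine, and cells of this kind also occur in the mouse thymic medulla.

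Expression was measured in thymic epithelial cells (TECs) after induced deletion of Meis1, a TALE-class homeobox transcription factor, to find genes that depend on it. All mice were 3 weeks old, carried K14-CreERT2, a tamoxifen-activated Cre under the keratin 14 promoter, and were injected with 1 mg of tamoxifen on 3 days in a row. Meis1-CKO mice were Meis1fl/fl, and controls were Meis1fl/+, heterozygotes whose single floxed allele could recombine too and which the labels call WT. CD45- EpCAM+ cells were sorted 4 days after treatment and pooled from 6 mice, with 2 pools per genotype from 2 independent experiments and 1 single-colour array per pool. The keratin 14 promoter limits which cells the Cre can act in, and recombination was not measured by cell in these pools. Control 1 and Meis1-CKO 1 shared slide 1, and control 2 and Meis1-CKO 2 shared slide 2. P-values and SEs from limma combine a gene's spread between pools with that over all features. With 2 arrays per group, their precision is limited.

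Between 58.6% and 63.6% of spots were well above background, and none was saturated. Meis1-CKO 2 stood apart, with correlations of 0.856 to 0.884 with the other arrays against 0.936 to 0.943 among those. Meis1 itself read -0.12 and -0.91 in the controls and -0.44 and -2.08 in Meis1-CKO, so that the groups overlapped; these and all levels below are log2 signals relative to the 75th percentile of the array. Its difference was -0.75 in all, -0.32 on slide 1 and -1.17 on slide 2. Its other probe read -3.19 and -3.23 in the controls and was not well above background on either Meis1-CKO array (-3.77 and -4.74), so that it was at least 1.46-fold higher in controls, counted against the lowest signal above background or the probe's own. The limma adjusted p was 1 for both probes. Epcam, the surface marker used in the sort, read between 4.11 and 4.72 on all arrays.

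The probes of the 6 genes that read lower on both slides are shown by their first 30 of 60 bases, as the array files give them, because each value below is the signal of that oligo alone. Positions are on mm9.
Trpm5, chr7:150257715-150257774, minus strand: attctggcagaaaccccaagatattgctca
Gnb3, chr6:124784574-124784633, minus strand: tctccttagggtcagtctcctatactccag
Plcb2, chr2:118549470-118549529, minus strand: gaggtcttcaacatggactttccagacaac
Pou2f3, chr9:42954951-42984381, minus strand: tttcaacagacagattaagacggaggatct
Avil, chr10:126453541-126454065, plus strand: ctcacatttggagcgaaggaaaatcatatg
Dclk1, chr3:55271688-55271747, plus strand: atgtgtatgatgtattgtatttagaccata
The Pou2f3 probe spans 29431 bases of genome and the Avil probe 525, so each of these oligos joins sequence from separate exons. The others lie in 1 unbroken stretch, and their exons or UTRs were not placed here.

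Most of the tuft-like genes read lower in Meis1-CKO, but none passed the test. The mean was lower for 8 of 9 genes (54.6% of all features), by 0.07 to 1.23 on the log2 scale, and higher for Chat. The median difference was -0.52, against -0.05 over all features. Marker lists of TECs were lower too, with medians of -0.76 for 7 medullary, -0.60 for 6 cortical and -0.39 for 5 general TEC markers. The medullary median was 0.05 on slide 1 and -0.71 on slide 2. Of the 7 medullary markers, 3 were lower on both slides and 4 differed in sign between slides. Krt5 (-0.84 on slide 1, -0.69 on slide 2) and Krt14 (-0.80 and -0.71) were lower on both, and Aire (0.53 and -2.22) was not. With limma and Benjamini-Hochberg adjustment over all 16813 features, 0 of 9 genes were called (0% of all features), and every adjusted p was 1. At an unadjusted p under 0.05 there were also 0 of 9, against 2.8% of all features in either direction and 1.44% in the lower direction. For a single gene, an exact two-sided permutation test of 2 arrays against 2 cannot give a p under 0.333 and was not used. In bulk samples, fewer cells of a type and less RNA per cell cannot be told apart.

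**Figure D1:**
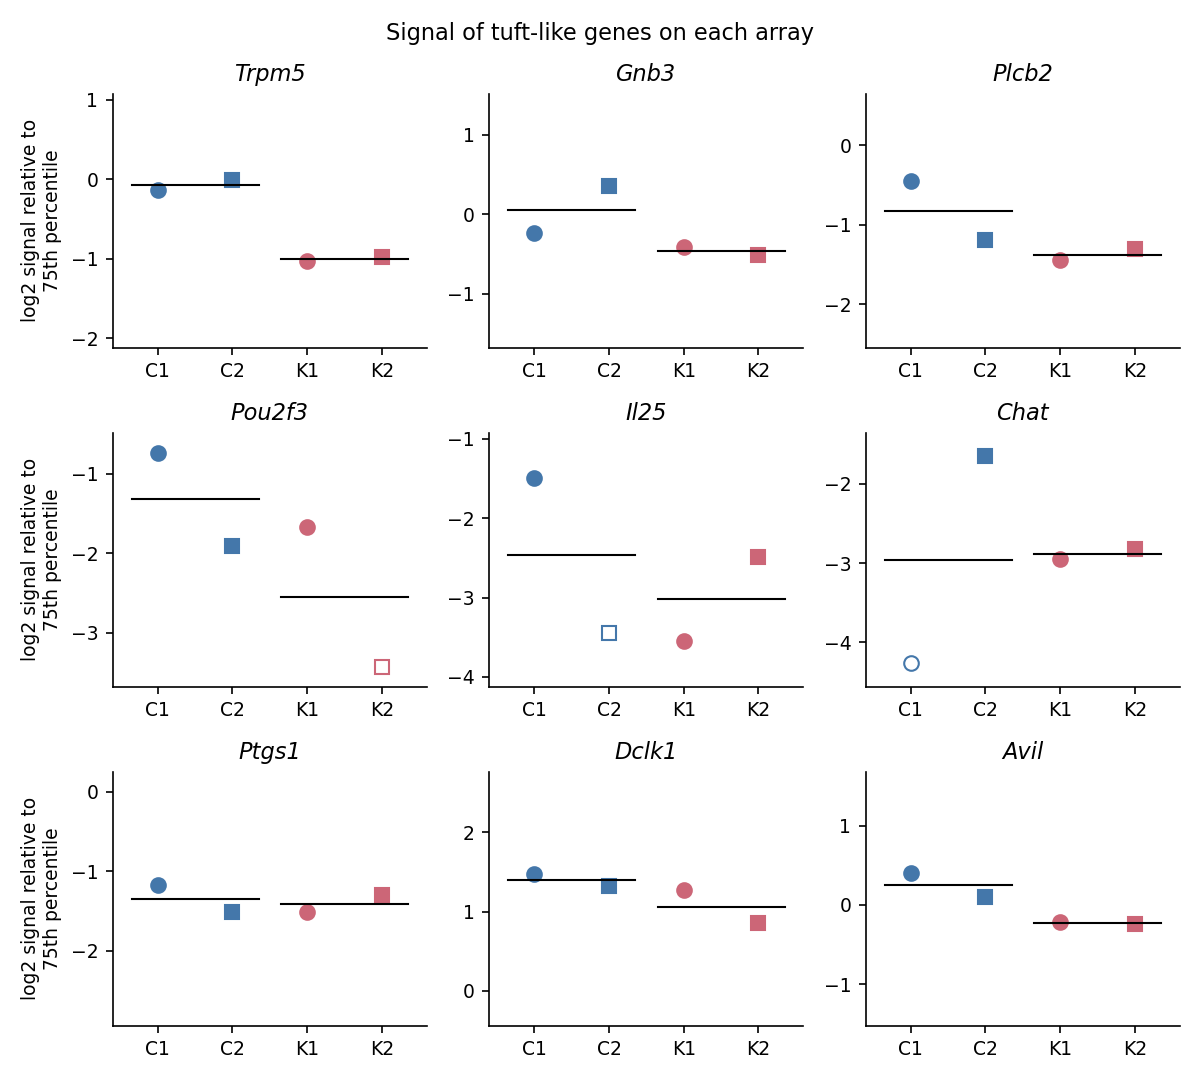
Log2 signal relative to the array's 75th percentile (y axis, spanning 3.2 units in every panel) of the probe standing for each gene in control (C1, C2, blue) and Meis1-CKO (K1, K2, red) pools. Circles are slide 1, squares slide 2, open symbols were not well above background and lines are group means; in Trpm5, Gnb3, Plcb2, Dclk1 and Avil both red points lie below both blue ones.

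Of the 10 markers, 3 measured ones belong to the taste cascade: Trpm5, Gnb3 and Plcb2. In these, both Meis1-CKO arrays lay below both control arrays (14.4% of all features). Of the 6 other tested genes of that cascade, given below with the other lists, 1 did so. Their median difference was 0.03. Trpm5, the cation channel at the end of the cascade, read -0.14 in control 1, -0.01 in control 2, -1.03 in Meis1-CKO 1 and -0.98 in Meis1-CKO 2. The 2 controls lay close together, as did the 2 Meis1-CKO pools, and the groups did not overlap. The signal was 1.91 times as high in controls, a difference of -0.93 (SE 0.42, n = 2 against 2; 95% interval -1.99 to 0.13; limma adjusted p = 1, unadjusted 0.074). It was -0.89 on slide 1 and -0.97 on slide 2. Of all features, 7.21% had a difference this low or lower.

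Gnb3, a G protein beta subunit of taste cells, had control values of -0.24 and 0.35 and Meis1-CKO values of -0.42 and -0.51. The groups did not overlap, but Meis1-CKO 1 lay within 0.18 of control 1. Its difference was -0.52 (SE 0.46, interval -1.67 to 0.63), with -0.18 on slide 1 and -0.86 on slide 2. Plcb2, which makes the second messenger that releases calcium, read -0.45 and -1.19 in the controls and -1.44 and -1.31 in Meis1-CKO. The groups were again separate, but control 2 was closer to the Meis1-CKO pools than to control 1, and with median scaling control 2 lay below Meis1-CKO 2. The difference was -0.55 (SE 0.48, interval -1.75 to 0.64), with -0.99 on slide 1 and -0.12 on slide 2. The other 2 Plcb2 probes were too dim to be tested: 1 was above background on control 2 and Meis1-CKO 2 with a difference of 0.19, and the other on no array.

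Pou2f3, the POU-domain factor that specifies tuft cells, had the largest mean difference of the 9 genes and a wide spread. It read -0.73 in control 1, -1.91 in control 2, -1.67 in Meis1-CKO 1 and -3.43 in Meis1-CKO 2, where it was not well above background. Control 2 lay below Meis1-CKO 1, so the groups overlapped, while within each slide Meis1-CKO was the lower pool. The difference was -1.23 (SE 0.76, interval -3.13 to 0.68; limma adjusted p = 1), -0.93 on slide 1 and -1.52 on slide 2. Leaving out Meis1-CKO 2 made it -0.35, and leaving out Meis1-CKO 1 made it -2.11.

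The effector genes had no common direction. Il25, the cytokine tuft cells send to innate lymphoid cells, read -1.49 and -3.45 in the controls and -3.55 and -2.49 in Meis1-CKO. Control 1 was the highest pool and control 2, not well above background, was among the lowest. Its difference was -0.55 (SE 0.79, interval -2.53 to 1.42), made of -2.06 on slide 1 and 0.96 on slide 2. Chat, the acetylcholine-synthesising enzyme, read -4.26 and -1.66 in the controls and -2.95 and -2.82 in Meis1-CKO. Both Meis1-CKO values lay between those of the controls, of which control 1 was not well above background. The difference was 0.07 (SE 0.89, interval -2.15 to 2.29), with 1.30 on slide 1 and -1.17 on slide 2, and its second probe was above background on no array. Ptgs1, the cyclooxygenase COX-1 of prostaglandin synthesis, read -1.17 and -1.52 in the controls and -1.51 and -1.31 in Meis1-CKO. The groups overlapped closely, with a difference of -0.07 (SE 0.44, interval -1.16 to 1.03) and slide differences of -0.34 and 0.21. Il25 and Chat entered the test through their Meis1-CKO arrays and Pou2f3 through its control arrays.

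The structural markers lay lower by small amounts. Avil, the actin-bundling protein advillin, read 0.40 and 0.10 in the controls and -0.22 and -0.24 in Meis1-CKO. The groups did not overlap, and its difference was -0.48 (SE 0.43, interval -1.56 to 0.60), -0.62 on slide 1 and -0.34 on slide 2. Dclk1, a microtubule-associated kinase widely used to stain tuft cells, was read by 7 probes. The probe standing for the gene is annotated to 1 RefSeq transcript of Dclk1. Among the other probes, only the most upstream one lists that transcript too. The probe standing for the gene read 1.47 and 1.33 in the controls and 1.27 and 0.85 in Meis1-CKO. These groups were separate by a narrow margin, and the difference was -0.34 (SE 0.44, interval -1.45 to 0.77), with -0.21 on slide 1 and -0.47 on slide 2.

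**Figure D2:**
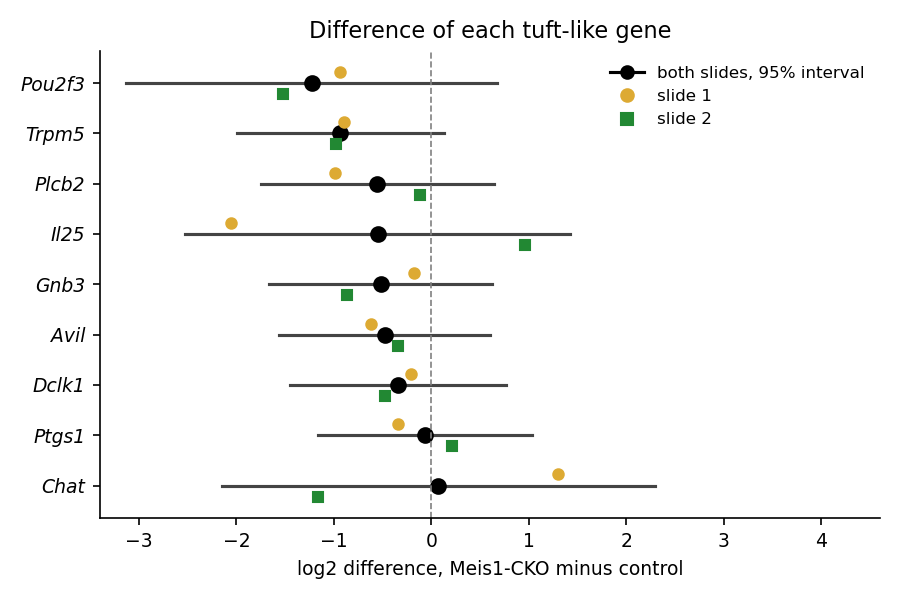
Log2 difference, Meis1-CKO minus control, of each tuft-like gene (x axis), with the limma estimate and its 95% interval in black and the difference within slide 1 (circles) and slide 2 (squares). Every interval includes 0, and the slides lie close together for Trpm5 and on opposite sides of 0 for Il25, Chat and Ptgs1.

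The 7 Dclk1 probes differed in size more than in sign. Of the 6 tested, only the probe standing for the gene had groups that did not overlap. Lower on both slides were 5 of the 6 (25.6% of all tested probes), and the differences of the 6 ran from -0.76 to 0.02. The largest came from a probe 155.5 kb from the most upstream one, which read 1.04 and -0.23 in the controls and -0.09 and -0.62 in Meis1-CKO. Control 2 lay below Meis1-CKO 1 there, and the slide differences were -1.13 and -0.39. A probe at 158.1 kb read -0.29 and -0.53 in the controls and -0.24 and -0.55 in Meis1-CKO, a difference of 0.02. The seventh, named after a cDNA clone, was above background only on control 1 and was not tested. Probes of 1 gene read the same RNA samples and are not replicates. The Dclk1 probes are not all annotated to the same transcripts, and differences between transcripts were not tested.

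**Figure D3:**
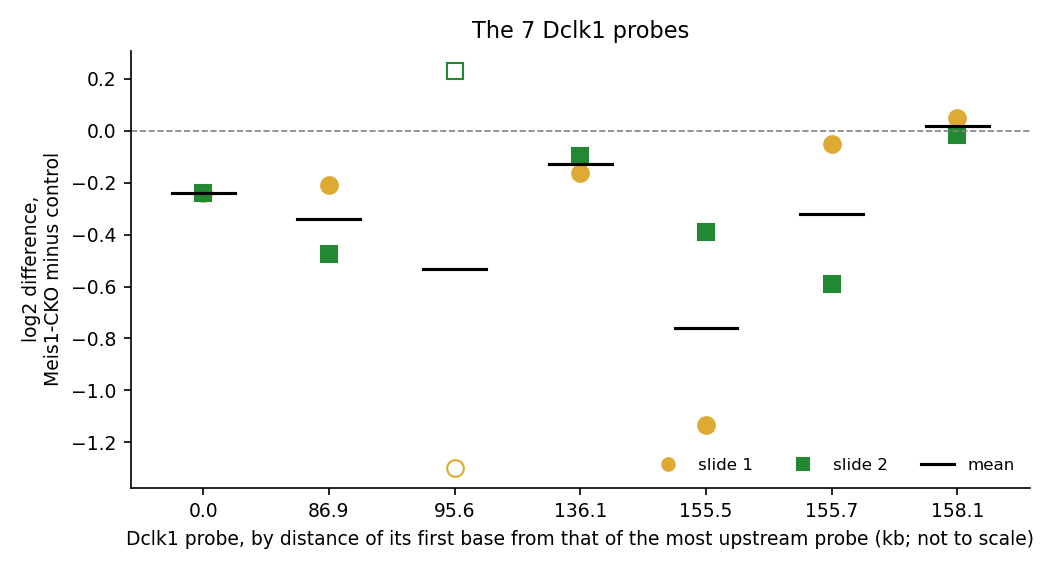
Log2 difference, Meis1-CKO minus control, of the 7 Dclk1 probes (y axis) in order along the gene (x axis, kb from the first base of the most upstream probe, not to scale). Circles are slide 1, squares slide 2, bars their mean and open symbols the untested probe; 5 of the 6 tested probes lie below 0 on both slides.

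Counted over the genes, both Meis1-CKO arrays lay below both control arrays for 5 of 9 (14.4% of all features) and above them for 0 (11.1%). The 5 became 4 with median scaling, where Plcb2 overlapped, and with the mean over a gene's probes, where Dclk1 did. Groups that did not overlap in either direction made up 25.5% of all features. Lower on both slides were 6 of 9 genes (26.5%), namely Trpm5, Gnb3, Plcb2, Pou2f3, Avil and Dclk1, and higher on both were 0 (20.4%). A lower mean was found for 8 of 9 (54.6%), with 8 of 9 lower on slide 1 (49.8%) and 7 of 9 on slide 2 (56.3%). The median difference was -0.62 on slide 1 and -0.47 on slide 2, where all features had 0.00 and -0.12. Over the 14 tested probes, each tested on its own, 0 were called (0% of 24254), 12 had a lower mean (52.7%), 10 were lower on both slides (25.6%) and 5 had groups that did not overlap (26.1%). No test was made over these genes together, since they were chosen with earlier results of these data known.

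**Figure D4:**
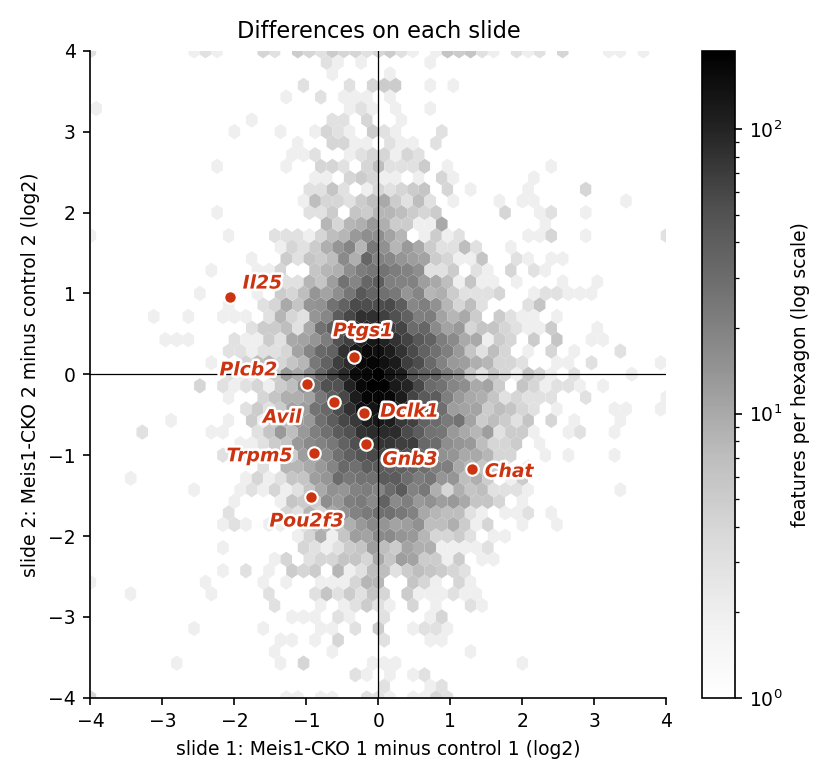
Difference between Meis1-CKO and control on slide 1 (x axis) and slide 2 (y axis), both log2, for all 16813 features as grey hexagons, darker with more features, with values beyond 4 drawn at the edge. Red points are the 9 tuft-like genes, of which 6 lie below 0 on both axes.

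Further lists, 8 in number, held 117 genes, of which 63 were tested. They covered tuft cell genes and an IL-25 circuit, whose Il4, Il5, Il13, Il33 and Tslp are not tuft cell markers. Of the 63, 0 were called by limma (0% of all features), 1 had an unadjusted p under 0.05 (2.8%), 36 were lower (54.6%) and 27 higher, with a median of -0.14, nearer to that of all features than the -0.52 of the tuft-like genes. The other taste transduction genes, among them Gng13, Itpr3 and Tas1r3, had a median of 0.03 over 6 genes (-0.48 on slide 1, 0.07 on slide 2). The 5 bitter receptors of the Tas2r family that were tested had 0.08. The 9 tuft cell transcription factors had -0.33, the 7 eicosanoid enzymes -0.25 and the 10 cytoskeletal genes -0.22, each with opposite signs or a value of 0.00 on 1 slide. In the cytoskeletal list Eps8, which caps actin filaments, had 1.23, against -0.87 at its other probe. Of the cholinergic genes only Ache, which breaks down acetylcholine, was tested, at -0.82. The 13 genes of immune-type signalling had 0.34, and 11 of them were higher.

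The list of the IL-25 circuit had the lowest median of the further lists with more than 1 tested gene. It was -0.65 over 12 genes, with -0.43 on slide 1 and -0.50 on slide 2. Of its 12 genes 9 were lower (54.6% of all features), 6 were lower on both slides (26.5%), and 5 had both Meis1-CKO arrays below both controls (14.4%). Il33, an epithelial alarmin, read -0.24 and -0.53 in the controls and -0.87 and -2.59 in Meis1-CKO. Both Meis1-CKO pools lay below both controls, and the difference was -1.35 (SE 0.67; limma adjusted p = 1), -0.64 on slide 1 and -2.06 on slide 2. Tslp, another epithelial cytokine that acts on type 2 immunity, read -1.26 and -0.999 in the controls and -2.04 and -2.52 in Meis1-CKO. Its groups were separate as well, with a difference of -1.15 (SE 0.45; limma unadjusted p = 0.048, adjusted p = 1), -0.78 on slide 1 and -1.52 on slide 2. Il4, the type 2 cytokine, had -1.31 (SE 0.73) and was above background on 1 of the 2 Meis1-CKO arrays.

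**Figure D5:**
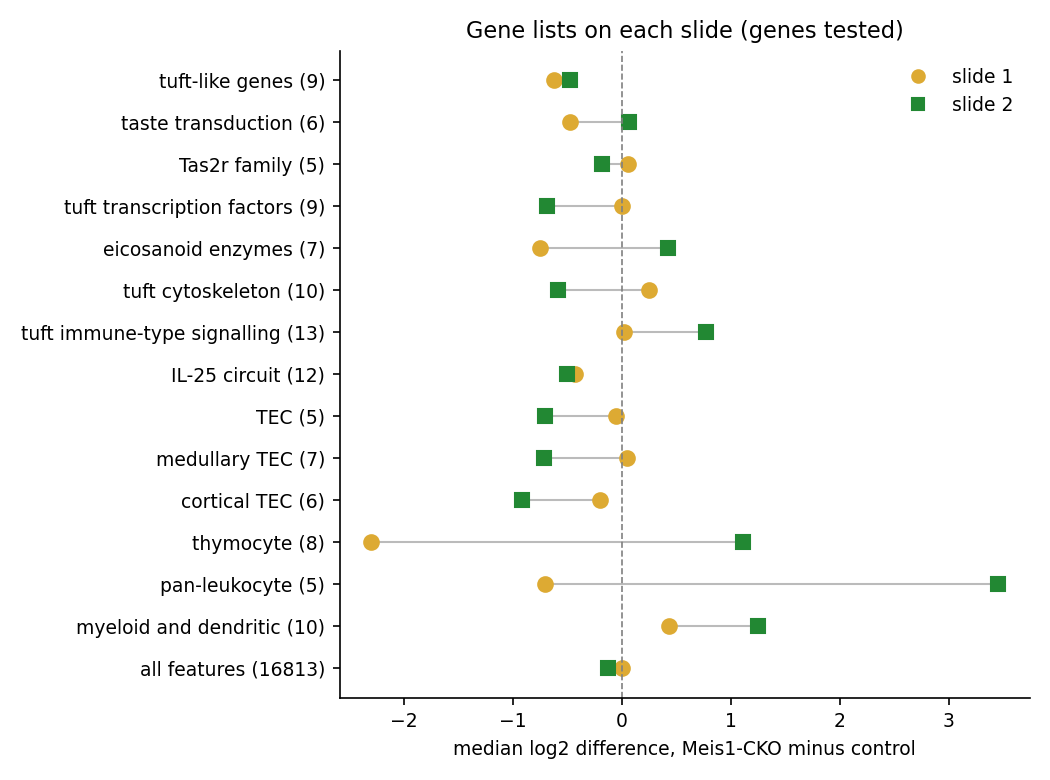
Median log2 difference, Meis1-CKO minus control (x axis), within slide 1 (circles) and slide 2 (squares). Shown are the tuft-like genes, other tuft-related lists, marker lists of other cells and all features, with the number of genes tested in brackets. The tuft-like genes have -0.62 and -0.47, while the pan-leukocyte and thymocyte lists lie on opposite sides of 0 on the 2 slides.

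Markers of other cells differed within both slides, and their part in the differences of the tuft-like genes was not tested. The summed signal of the 9 tuft-like genes, in units of the 75th percentile, was 8.04 and 7.31 in the controls and 5.75 and 5.08 in Meis1-CKO. The 5 TEC markers summed to 157 and 150 in the controls and 157 and 86.7 in Meis1-CKO, the 7 medullary markers to 302 and 202 against 196 and 115, and the 6 cortical markers to 223 and 197 against 228 and 70.8. The 5 pan-leukocyte markers were at 19.1 and 23.4 against 16.8 and 115, the 8 tested thymocyte markers at 48.6 and 17.8 against 5.93 and 37.7, and the 10 tested myeloid markers at 24.6 and 32.0 against 32.6 and 45.0. Ptprc, which encodes the CD45 antigen excluded in the sort, read 1.44 and 1.19 in the controls and -0.75 and 5.55 in Meis1-CKO. The median differences on slide 1 and slide 2 were -2.30 and 1.11 for the thymocyte list and -0.70 and 3.46 for the pan-leukocyte list. Without Meis1-CKO 2 altogether, 8 of 9 genes were lower, against 50.3% of all features, with a median of -0.47. Without Meis1-CKO 1, which leaves the pool with the leukocyte signal alone in its group, 0 of 9 were called while 2.12% of all features were.

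The remaining marker lists gave no sum above 10. The 4 tested mast cell markers summed to 1.78 and 2.59 in the controls and 2.13 and 1.84 in Meis1-CKO, with Cpa3 above background on 1 control and no Meis1-CKO array. The 3 tested platelet markers summed to 2.47 and 2.72 against 2.53 and 1.97, with Itga2b and Gp9 above background on no array. The 3 neural and Schwann markers were at 1.92 and 1.23 against 1.26 and 1.48, the 2 endothelial ones at 0.29 and 0.27 against 0.38 and 0.68, and the 4 fibroblast ones at 8.32 and 3.77 against 9.34 and 2.08.

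The start sites of these genes were searched for letters that Meis1 and Pou2f3 are known to prefer. RefSeq promoter sequences on GRCm38.p6 were at hand for 7 of the 10 genes, in 8 windows, and the 250 bases before each start were read on both strands. The MEIS core TGACAG was found in 15.9% of all 32851 promoters, and at least 2 copies in 1.64%. Among the tuft-like genes, Trpm5 held 2 copies and Gnat3 held 1, while the other windows, of Avil, Chat, Dclk1, Plcb2 and Ptgs1, held none. The octamer ATGCAAAT of POU factors, in 1.6% of all promoters, was in none of the windows. The window before the Trpm5 start is printed because that gene had similar differences on both slides and held both copies. The 2 copies lie 138 to 143 and 148 to 153 bases before the start, on the minus strand of the window, and are in capitals as their reverse complement. A match describes letters and shows no binding.
Trpm5, chr7:143094643-143094892, minus strand, GRCm38.p6: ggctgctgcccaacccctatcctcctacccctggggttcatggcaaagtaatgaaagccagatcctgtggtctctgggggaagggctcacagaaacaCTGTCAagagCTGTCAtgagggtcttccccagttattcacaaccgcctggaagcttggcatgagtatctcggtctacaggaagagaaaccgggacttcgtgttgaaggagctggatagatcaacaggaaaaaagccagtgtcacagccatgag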

How the data were processed

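Each array was hybridised with Cy3-labelled cDNA amplified from 10 ng of RNA, per the labels' protocols. The deposited scanner output holds spot intensity values that Agilent Feature Extraction 9.5.3.1, per the submitters' processing notes, had background-subtracted on each array. The deposited value table holds log2 values. Differences between its columns had a slope and a correlation of 1 with those of the scaled scanner signals over 20818 probes, which settles its scale and direction; each probe was centred on its median. Its column medians were 0.04 and 0.09 for the controls and -0.06 and -0.12 for Meis1-CKO. It was used as an alternative.

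From each log2 processed signal the 75th percentile of its array, without control spots, was subtracted. Control spots and 63 to 78 outlier spots per array were left out. Probes entered the test if both arrays of a group, or of each, had them well above background, and the probe with the highest mean stood for its gene. Groups were compared with limma 3.58.1 in R 4.3.3 (lmFit, eBayes, no block). Benjamini-Hochberg adjustment covered every feature, with a threshold of 0.05, and 14 alternatives were tried. Symbols were updated through a RefSeq table by accession for 26690 of 41174 probes and by an older symbol for 952, and 7091 had none. Coordinates of probes were copied from the array files (mm9).

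The test was first run on simulated data with 16813 features and known changes. These were larger in size than any mean difference of the tuft-like genes, so the run gives no measure of power for them. Per the file headers, slide, scan and replicate number coincide. Arrays with the same number deviated from their group means with a correlation of 0.134, and the labels give a number no further meaning, so the block is an alternative. The genes and lists were chosen with earlier results of these data known. Named are all 10 genes, Meis1, Epcam, up to 4 genes of each further list with a log2 difference of at least 1, the same sign on both slides and groups that did not overlap, and defining markers. Gng13, Itpr3, Tas1r3, Ache and Alox5ap fall outside this rule and were named after their values were seen.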

Additional observations from a re-analysis of the deposited data

How the results depend on the processing

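None of the 9 genes was called under the main setting or any of 14 alternatives. Over 123 values of single genes under these alternatives, 118 kept the direction and the side of the threshold, and the lowest adjusted p was 0.174, for Pou2f3 without Meis1-CKO 1. The other 5 changed sign. Chat was at -0.11 with normexp background correction. With 1 array left out in turn, Chat lay between -1.23 and 1.37 and Il25 between -1.53 and 0.43. The sign of both turned without control 1. Ptgs1 lay between -0.24 without control 2 and 0.11 without control 1, with 0.04 without Meis1-CKO 1. Trpm5 ranged from -0.9985 to -0.55, the latter with normexp, and Pou2f3 from -2.11 to -0.35. With no filter on dim probes, the limma unadjusted p of Trpm5 was 0.0111 and the adjusted p 0.699. The median of the genes was between -0.53 and -0.32 under other processing, and between -0.63 (without control 2) and -0.33 (without control 1) with 1 array left out. Lower on both slides were 5 of 9 genes with median scaling and where every tested probe of a gene had to be lower, 5 of the 6 genes left by the filter on all 4 arrays, and 6 of 9 under the other processing settings. With 1 array left out, between 0 and 357 features were called. The 357 (2.12%; 217 higher, 140 lower) came without Meis1-CKO 1, when Alox5ap was the 1 gene of the further lists called, against 0 without any other array. A lone array was assumed to vary like the other group. With the replicate number as a block, the median stayed at -0.52, 0 features were called and every adjusted p of the genes was 1. The lowest unadjusted p was then 0.048, for Pou2f3.

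The precision is limited by 2 pools per group and by dim signal. The half-widths of the 95% intervals lay between 1.06 and 2.22, so halvings and doublings could not be told from no difference. Pou2f3, Il25 and Chat were each not well above background on 1 array, and 2 of the 18 probes were above it on none. Controls were heterozygous for the floxed allele. Tuft-like cells are a minority of sorted TECs, and their share was not measured.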
